A study of Mus musculus with 6 samples.

Results

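Cyp11a1 and Gm16130 are neighbouring genes on mouse chromosome 9, and 40 of the 175929 accessible regions (peaks) measured by ATAC-seq lay nearest to their start sites. A peak counted as a member when the deposited annotation named either gene as the nearest and placed the peak within 100000 bp of its transcription start site (TSS). This gave 17 peaks for Cyp11a1 and 23 for Gm16130, and the farthest lay 33862 bp from a TSS. The locus was chosen because its accessibility differed between the treatment groups compared here, so the differences at its own peaks are a description, given without a test.

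ATAC-seq uses a transposase to insert sequencing adapters into open DNA. It was applied to leukemia cells that carried AE9a, a shortened AML1/ETO fusion protein, together with a tamoxifen-inducible Cre and Usp18 floxed on 1 allele. These Usp18+/f AE9a cells were grown in recipient mice, and sick mice received oil or tamoxifen. GFP+ Lin- c-Kit+ cells were sorted from the spleen on day 3 after injections began. The oil group held replicates 1, 2 and 4 (labelled Usp18+/f) and the tamoxifen group replicates 1, 3 and 4 (labelled Usp18+/D). Before treatment, the cells of all libraries carried AE9a, the floxed allele and the Cre. Tamoxifen itself, activation of the Cre and the loss of 1 Usp18 allele therefore cannot be told apart. Whether the libraries came from separate mice is not stated in the labels. The study's RNA methods describe separate mice for the sorted cells also used for ATAC-seq, but its text elsewhere gives fewer biological replicates for this assay than there are libraries in a group, so each SD and p-value is over libraries.

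Cyp11a1 encodes the mitochondrial cholesterol side-chain cleavage enzyme, which converts cholesterol to pregnenolone and so begins steroid hormone synthesis. The enzyme takes electrons from ferredoxin (Fdx1) and ferredoxin reductase (Fdxr), and the proteins Star and Tspo are known for their place in cholesterol delivery to the mitochondrion. Steroid synthesis is best known from the adrenal gland, gonads and placenta, although some immune cells express Cyp11a1 as well. Gm16130 runs on the plus strand within Ccdc33, a gene on the minus strand. The annotation behind the deposited table treats Gm16130 as a coding transcript, whereas the RefSeq annotation of mm10 used here lists it as a long non-coding RNA.

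In mm10 coordinates the 40 peaks spanned chr9:57974440-58066237, which is 91.8 kb, and covered 11333 bp of it. RefSeq gives Cyp11a1 an upstream start site at position 57998024 and a main start site at 58014952, and places the Gm16130 start site at 58032274. Of the members, 12 overlapped Cyp11a1, 21 overlapped Ccdc33 and 11 overlapped Gm16130, which lies inside Ccdc33, and 7 lay in no RefSeq gene. The peaks had a median width of 236.5 bp, and 5 of them lay in annotated repeats. Within 3000 bp of a TSS lay 13 of the 40.

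The sequences at the centre of the described differences are the 3 promoters, the peak just upstream of the main promoter and the intronic peak with the highest level after tamoxifen. Promoters are the 250 bases before each RefSeq start from the RefSeq promoter table, and the other regions were read from the mm10 genome. All are on the plus strand, which is the strand of both genes, and capitals mark matches to the motifs named after them.
Cyp11a1 upstream promoter, chr9:57997774-57998023: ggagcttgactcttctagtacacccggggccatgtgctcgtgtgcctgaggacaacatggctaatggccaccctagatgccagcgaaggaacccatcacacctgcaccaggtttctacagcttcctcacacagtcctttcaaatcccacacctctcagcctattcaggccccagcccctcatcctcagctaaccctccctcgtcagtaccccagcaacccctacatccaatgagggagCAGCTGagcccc
Peak upstream of the main Cyp11a1 promoter, chr9:58014397-58014660: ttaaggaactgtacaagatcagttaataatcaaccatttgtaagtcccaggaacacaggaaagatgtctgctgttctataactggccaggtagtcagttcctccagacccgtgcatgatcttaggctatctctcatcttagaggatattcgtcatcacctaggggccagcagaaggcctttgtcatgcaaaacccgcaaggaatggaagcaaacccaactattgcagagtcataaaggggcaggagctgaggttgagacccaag
Main Cyp11a1 promoter, chr9:58014702-58014951: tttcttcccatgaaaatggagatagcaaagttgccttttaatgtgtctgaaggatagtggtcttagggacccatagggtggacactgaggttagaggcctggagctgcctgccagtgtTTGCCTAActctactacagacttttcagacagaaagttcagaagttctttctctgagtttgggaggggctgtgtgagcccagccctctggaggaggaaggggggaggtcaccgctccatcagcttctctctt
Intronic Cyp11a1 peak, central 300 bases, chr9:58023152-58023451: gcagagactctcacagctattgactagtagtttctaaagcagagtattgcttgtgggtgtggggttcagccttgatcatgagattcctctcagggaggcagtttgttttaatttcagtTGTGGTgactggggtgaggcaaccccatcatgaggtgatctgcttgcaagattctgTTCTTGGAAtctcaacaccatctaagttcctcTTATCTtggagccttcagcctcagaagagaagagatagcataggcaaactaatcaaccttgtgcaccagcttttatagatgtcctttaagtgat
Gm16130 promoter, chr9:58032024-58032273: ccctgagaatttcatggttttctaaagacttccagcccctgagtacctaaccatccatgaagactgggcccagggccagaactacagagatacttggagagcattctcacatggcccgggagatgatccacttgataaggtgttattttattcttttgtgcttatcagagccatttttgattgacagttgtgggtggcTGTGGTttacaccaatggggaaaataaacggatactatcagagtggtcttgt

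Motifs were searched on both strands as fixed letters, with AGATAA standing for GATA factors and TGTGGT for RUNX factors. Myeloid motifs were GAGGAAGT for PU.1 and TTGCNNAA for C/EBP. The others were TGANTCA for AP-1, the STAT motif TTCNNNGAA, the E-box CAGCTG, the CRE motif TGACGTCA, and either TCAAGGTCA or the variant CCAAGGTCA for NR5A1, a regulator of steroid enzyme genes. The ISRE of interferon-stimulated genes, the NF-kB motif and the oestrogen response element were searched as well, and none of the motifs was required not to overlap another. The upstream Cyp11a1 promoter held an E-box at bases 239 to 244, counted from the first base printed. The main promoter held a C/EBP match at bases 119 to 126, and the Gm16130 promoter a RUNX match at bases 199 to 204. Among all 32851 promoters of 250 bases, 13.0% held the E-box, 9.56% the C/EBP letters and 14.1% the RUNX letters.

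The central 300 bases of the intronic Cyp11a1 peak held RUNX letters at bases 119 to 124, STAT letters at bases 175 to 183 and GATA letters on the opposite strand at bases 207 to 212. The whole peak also held 1 C/EBP match, not contained in the bases printed. In 300-base windows around the centres of 175738 peaks, 25.2% held RUNX, 7.71% STAT and 19.7% GATA letters. Over such windows at the 40 members the numbers were 9 for RUNX, 4 for STAT, 8 for GATA, 9 for the E-box, 6 for AP-1, 4 for C/EBP, and 1 each for PU.1 and NR5A1. Across all windows the E-box was held by 18.0%, AP-1 by 9.24%, C/EBP by 10.0%, PU.1 by 4.45% and NR5A1 by 1.13%. The NF-kB letters occurred in 2 members (1.32% of all windows), while 0 members held the ISRE (3.37%), the oestrogen response element (0.0250%) or the CRE (0.673%). A match describes the letters only, and the lack of one says only that they were not in the window. The peak just upstream of the main promoter held none of the letters searched.

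Mapped tags per library ran from 57.4 M to 74.7 M (M, 1000000 tags), 28.2% to 30.5% of tags fell in peaks, and the median peak held 45 to 57 tags. Tamoxifen replicate 4 had the lowest value of the 3 tamoxifen libraries at 27 of the 40 members, and still exceeded every oil library at 36. At the Usp18 promoter peak normalized tags were 438.1 ± 21.8 (SD, n = 3) with oil and 448.8 ± 16.7 (SD, n = 3) with tamoxifen. The position of the floxed segment is not given in the sources used here, so this peak does not check the deletion. The peak nearest the start of Kit, the marker used for sorting, held 757.3 ± 8.80 (SD, n = 3) and 787.2 ± 61.1 (SD, n = 3) normalized tags, and its adjusted p was 0.96 with DESeq2. Normalized tags are tags divided by the DESeq2 size factor of the library.

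Accessibility after oil differed widely along the locus. The oil values entered the contrast on which the locus was chosen, and 19 of the 40 members are in the table only through the tamoxifen peak list, so the level and order given here are a description. Per 1000 bp of peak, the members held from 26.6 to 757.6 normalized tags, with a median of 94.7 against 169.4 over all peaks. The order was led by a peak in an intron of Gm16130 (chr9:58038623-58038830, 757.6 ± 79.4 per 1000 bp, SD, n = 3), followed by a peak in Ccdc33 beyond the end of Gm16130 (chr9:58061001-58061207, 671.7 ± 161.4) and a peak 474 bp downstream of the upstream Cyp11a1 start (chr9:57998396-57998601, 605.8 ± 87.1). Both promoters ranked far lower, as the peaks nearest the main Cyp11a1 start and the Gm16130 start held 111.3 and 119.6 tags per 1000 bp. Of the 39 pairs of neighbours in this order, 36 had overlapping library values and therefore did not differ beyond their spread. The 12 highest members lay above the median of all peaks, and the lowest of these, 2500 bp upstream of the upstream start, did not overlap with the member next in order.

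After tamoxifen, 19 of 40 members lay above the median of all peaks, which was 174.5 tags per 1000 bp. The highest level had passed to the intronic Cyp11a1 peak (chr9:58023120-58023483), at 1165 ± 119.2 per 1000 bp (SD, n = 3) against 472.1 ± 23.8 and rank 7 after oil. Its libraries did not overlap with those of the next member, the Gm16130 intronic peak that had led after oil, which stood at 941.2 ± 136.6. Of the 39 pairs of neighbours in the tamoxifen order, 34 overlapped.

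**Figure D1:**
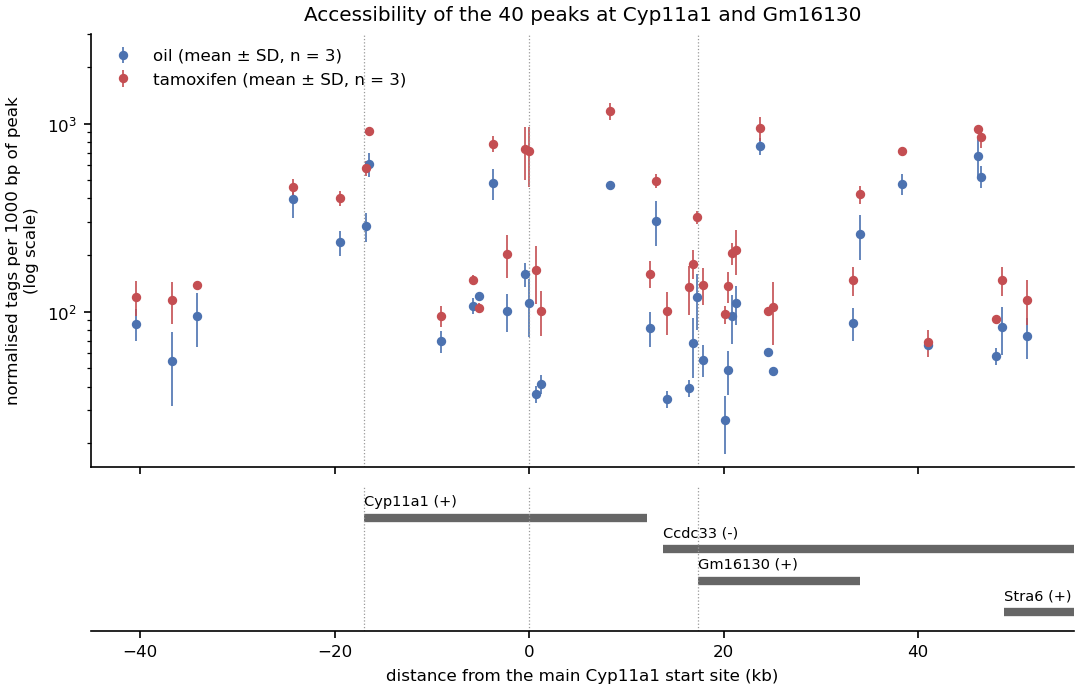
Levels of the 40 peaks by distance (kb) of the peak centre from the main Cyp11a1 start site, in normalized tags per 1000 bp of peak on a log axis, as mean ± SD of 3 oil (blue) and 3 tamoxifen (red) libraries, with gene extents below and dotted lines at the 3 start sites. The red points lie farthest above the blue ones at the main start site, where the peak nearest the start went from 111.3 to 710.8 tags per 1000 bp.

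The question put to the locus was how its accessibility differed between oil and tamoxifen. A peak was called when the DESeq2 fit over all peaks gave a fold change above 2 and a Benjamini-Hochberg adjusted p under 0.05. By this rule 11 of 40 members were called higher after tamoxifen, 5 of Cyp11a1 and 6 of Gm16130, whereas 0.588% of all peaks were called higher. No member (0) was called lower by DESeq2 or by edgeR, and 0 were lower at an unadjusted p under 0.05, while 0.0659% of all peaks were called lower. Since the locus was chosen on this contrast, these counts describe it and support nothing further. edgeR called 15 members, which included the same 11.

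Short of the call, 39 of 40 members had a higher fitted value after tamoxifen, as did 49.7% of all peaks. At 35 members every tamoxifen library exceeded every oil library, as was the case at 11.8% of all peaks, and 15 had more tags at an adjusted p under 0.05 whatever their fold, against 1.22% of all peaks. The median log2 fold change of the members was 0.81, against -0.0013 over all peaks, where the middle of the distribution ran from -0.18 to 0.19 between quartiles. Summed over the 40 members, normalized tags were 1843, 2207 and 1851 in oil replicates 1, 2 and 4 and 3730, 3906 and 3306 in tamoxifen replicates 1, 3 and 4. The sums did not overlap, and their means were in a ratio of 1.85, which was 2.06 over the Cyp11a1 peaks and 1.68 over the Gm16130 peaks.

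The number of calls depended on single libraries. Leaving out oil replicate 1 gave 5, and leaving out oil replicate 2 or oil replicate 4 gave 6. Leaving out tamoxifen replicate 1 gave 5, tamoxifen replicate 3 gave 4 and tamoxifen replicate 4 gave 14. In each of these 6 fits 4 peaks were called, namely both peaks at the main Cyp11a1 promoter, the intronic Cyp11a1 peak and the peak at the Gm16130 start.

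The main Cyp11a1 start site, from which the usual enzyme transcript begins, showed the largest differences. The peak nearest to it, centred 55 bp upstream (chr9:58014792-58015002), held 14.3, 29.3 and 26.9 normalized tags in oil replicates 1, 2 and 4 and 127.6, 210.6 and 111.7 in tamoxifen replicates 1, 3 and 4. The lowest tamoxifen library thus stood well above the highest oil library, and replicate 3 was the highest. Its log2 fold change of 2.65 ± 0.29 (SE) was the largest of the 40. This peak covers most of the main promoter sequence printed above, including the C/EBP letters.

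The second promoter peak, centred 424 bp upstream (chr9:58014397-58014660), held 48.5, 39.0 and 37.6 normalized tags after oil and 192.3, 254.0 and 132.2 after tamoxifen, a log2 fold change of 2.21 ± 0.24 (SE). Again the groups were far apart, with tamoxifen replicate 4 lowest and replicate 3 highest of their group. A weaker peak in the intron 718 bp downstream of the start (chr9:58015562-58015779) had 8.83, 7.80 and 7.17 tags after oil and 46.4, 40.1 and 22.4 after tamoxifen, a log2 fold change of 2.20 ± 0.47 (SE). Even the highest oil library lay below the lowest tamoxifen library, and the peak was found in the peak list of the tamoxifen group alone.

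The other peaks around the main start site, 2257 bp upstream and 1239 bp downstream, had log2 fold changes of 0.99 ± 0.34 (SE) and 1.29 ± 0.48 (SE), were not called, and did not overlap between groups. Summed over the 5 peaks of this stretch of 3.73 kb, tags were 105.7 ± 3.99 (SD, n = 3) with oil and 448.9 ± 135.6 (SD, n = 3) with tamoxifen. This ratio of 4.25 was the highest of the 9 stretches into which the locus was divided. The tamoxifen libraries themselves ran from 320.3 in replicate 4 to 590.5 in replicate 3.

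The intronic Cyp11a1 peak, 8349 bp downstream of the main start and the only member in the remainder of the gene body, was far more accessible than the promoter after oil. It held 172.1, 180.4 and 163.1 normalized tags after oil and 458.2, 439.0 and 375.3 after tamoxifen, with little spread within either group. Its log2 fold change was 1.30 ± 0.13 (SE), the smallest error of all members. The RUNX, STAT and GATA letters printed in capitals above lie within this peak.

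At the upstream Cyp11a1 start site, 1 of 2 peaks was called. The peak centred 152 bp past that start (chr9:57997960-57998392), in the 5′ untranslated exon, held 105.9, 148.2 and 116.5 tags after oil and 249.4, 276.3 and 229.1 after tamoxifen, a log2 fold change of 1.02 ± 0.16 (SE). The groups were apart, but the fold only just exceeded the limit of 2. Its neighbour 474 bp past the start, which was among the most accessible members after oil, had a log2 fold change of 0.60 ± 0.16 (SE), and the ratio of the summed tags of both was 1.78.

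Upstream of this start, 5 intergenic peaks had log2 fold changes from 0.21 to 1.08 and a ratio of summed tags of 1.45. None (0) of these was called, and 4 did not overlap between groups. Between both Cyp11a1 starts, 3 peaks in introns and 1 in an untranslated exon, which also overlaps the pseudogene Gm17322, had values from -0.20 to 0.70, with the same ratio of 1.45. They include the only member with a lower fitted value after tamoxifen (chr9:58009722-58009930), which held 24.3, 26.3 and 25.1 tags after oil and 23.2, 22.3 and 20.5 after tamoxifen. This difference of -0.20 ± 0.38 (SE) on the log2 scale was smaller than its error, although all 3 tamoxifen libraries lay below all 3 oil libraries, as at no other member. The peak was found in the oil peak list alone.

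The Gm16130 start site was the other centre of the locus, where all 4 peaks were called. The peak nearest the start (chr9:58032035-58032373), which covers most of the printed Gm16130 promoter, held 27.6, 54.6 and 39.4 normalized tags after oil and 117.9, 102.5 and 102.4 after tamoxifen. Its log2 fold change was 1.40 ± 0.25 (SE), and here tamoxifen replicates 3 and 4 were alike. The peak 883 bp upstream (chr9:58031239-58031544) had 11.0, 11.7 and 13.4 tags after oil and 44.5, 51.3 and 27.9 after tamoxifen, a log2 fold change of 1.76 ± 0.41 (SE).

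The peak 451 bp upstream of the Gm16130 start (chr9:58031722-58031924) held 8.83, 18.5 and 14.3 tags after oil and 37.7, 42.3 and 29.8 after tamoxifen, a log2 fold change of 1.38 ± 0.40 (SE). In the exon 589 bp downstream (chr9:58032685-58033042) there were 24.3, 17.6 and 17.9 tags after oil and 54.1, 57.9 and 37.3 after tamoxifen, a log2 fold change of 1.33 ± 0.34 (SE). At all 4 peaks the groups were apart. The 4 peaks together held 86.4 ± 15.4 tags (SD, n = 3) with oil and 235.2 ± 32.8 (SD, n = 3) with tamoxifen, a ratio of 2.72. Of these 4 peaks, 3 were found in the tamoxifen peak list alone.

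Between the end of Cyp11a1 and the Gm16130 start lay 3 peaks, of which the one 3156 bp upstream of Gm16130 (chr9:58028938-58029299), in a Ccdc33 intron, was called. It held 11.0, 13.7 and 12.5 tags after oil and 44.5, 39.0 and 26.1 after tamoxifen, a log2 fold change of 1.55 ± 0.41 (SE). The other 2 had log2 fold changes of 0.95 and 0.70, and none of the 3 overlapped between groups.

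Over the Gm16130 gene body, 1 of 9 peaks was called, 3163 bp past the start (chr9:58035244-58035631). It held 13.2, 22.4 and 21.5 tags after oil and 59.9, 57.9 and 41.9 after tamoxifen, a log2 fold change of 1.47 ± 0.34 (SE), and the groups were apart. By contrast, the intronic peak that led the order of levels after oil (chr9:58038623-58038830) held 156.6, 174.5 and 141.6 tags after oil and 212.6, 211.7 and 163.0 after tamoxifen. Here the groups overlapped, as tamoxifen replicate 4 fell below oil replicate 2, and the log2 fold change was 0.31 ± 0.16 (SE). Summed over the 9 peaks the ratio was 1.64.

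Beyond Gm16130, 7 peaks within Ccdc33 had log2 fold changes from 0.05 to 0.83 and a ratio of 1.49. None (0) was called, and 5 did not overlap between groups. The outermost stretches on both sides thus had smaller ratios than the main Cyp11a1 and Gm16130 start sites, although all 12 of their fitted log2 fold changes were above 0.

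Of the members close to the limits of the call, the one called with the smallest fold was the upstream start peak at 1.02, and the one called with the largest adjusted p was the peak 451 bp upstream of Gm16130. Just outside, a Gm16130 intronic peak (chr9:58036022-58036394) missed the fold limit at a log2 fold change of 0.94 ± 0.27 (SE), with 30.9, 42.9 and 50.2 tags after oil and 104.4, 66.9 and 68.0 after tamoxifen. Another (chr9:58035010-58035222) missed the adjusted p limit at 1.88 ± 0.56 (SE), with 7.72, 3.90 and 5.38 tags after oil and 23.2, 20.1 and 18.6 after tamoxifen. Neither overlapped between groups. In all, 4 members passed the adjusted p limit but not the fold limit, and 5 had a fold above 2 without passing the adjusted p limit.

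**Figure D2:**
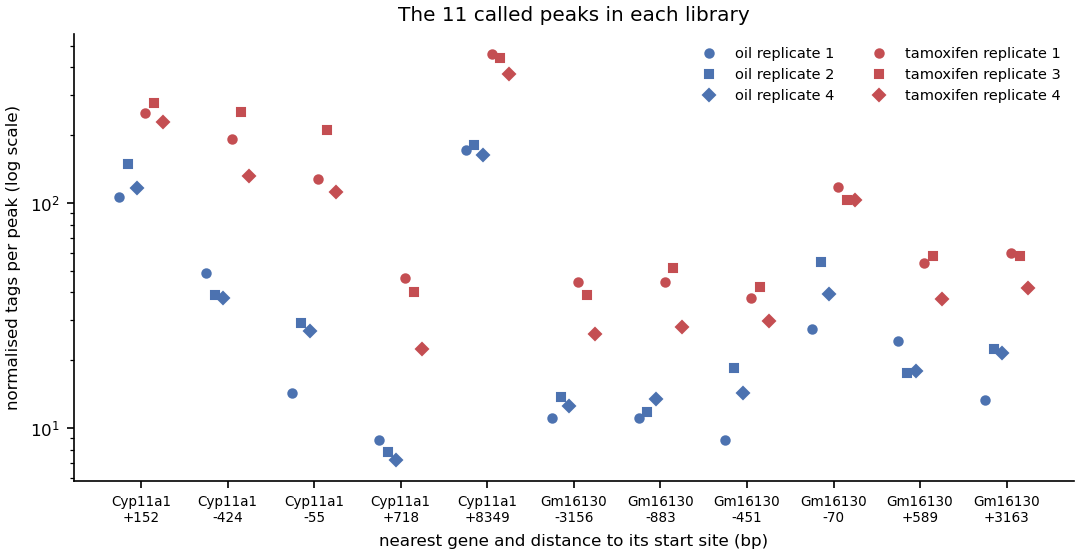
Normalized tags per peak on a log axis for the 11 called members in each library, blue for oil and red for tamoxifen, with the nearest gene and the distance of the peak centre to its start site (bp) on the horizontal axis. At each peak the red points lie above all blue points, and the red diamond, tamoxifen replicate 4, is the lowest of its group.

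Peaks were listed by the group whose libraries yielded them. Of the 40 members, 19 came from the tamoxifen list alone, 2 from the oil list alone and 19 from both, whereas 11.2% of all peaks came from the tamoxifen list alone and 17.4% from the oil list alone. Because both lists were derived from these same 6 libraries, they share the tags with the contrast and are no second measurement.

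The number of called peaks per gene was also high relative to other genes. Among 19781 genes with a peak within 100000 bp, 19 had at least the 5 peaks called higher of Cyp11a1, itself included, and 14 had at least the 6 of Gm16130. This ordering uses the same contrast, and the genes differ in how many peaks they hold.

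The rest of the chromosome around the locus served as a comparison that the choice of members did not use. Within 250 kb of the main Cyp11a1 start lay 82 other peaks, assigned to 10 genes. DESeq2 called 0 of them, as did edgeR, although 5 were higher and 3 lower at an unadjusted p under 0.05. Over all peaks, DESeq2 called 0.588% higher and 0.0659% lower. Their median log2 fold change was 0.0067, 14 of 82 had all tamoxifen libraries above all oil libraries, which was the case at 11.8% of all peaks, and 7 had all below.

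Of these neighbours, the promoter peak of Sema7a (chr9:57939986-57940266), which encodes a membrane-anchored semaphorin, passed the adjusted p limit without reaching the fold limit. It held 77.2, 90.7 and 66.3 normalized tags after oil and 146.9, 127.0 and 128.5 after tamoxifen, a log2 fold change of 0.78 ± 0.20 (SE) with an adjusted p of 0.0082 (DESeq2). The groups did not overlap. The 6 peaks of Sema7a had a median log2 fold change of 0.24. The 5 peaks of Ccdc33 outside the member set had a median of 0.77. It was 0.69 at the 3 of Stra6, which encodes a receptor for retinol-binding protein. All peaks of these genes had positive values, and 4, 2 and 1 did not overlap between groups (11.8% of all peaks). None (0) of the 8 Ccdc33 and Stra6 peaks passed, with smallest adjusted p-values of 0.46 and 0.46 (DESeq2).

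Farther away, the medians were -0.11 for Ubl7, 0.09 for Arid3b, 0.10 for Islr2, -0.10 for Clk3, -0.15 for Pml, -0.04 for Stoml1 and -0.09 for Mir6385. Pml encodes the organizer of PML nuclear bodies and is itself known as an interferon-responsive gene. All of these lay within the quartiles of all peaks.

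**Figure D3:**
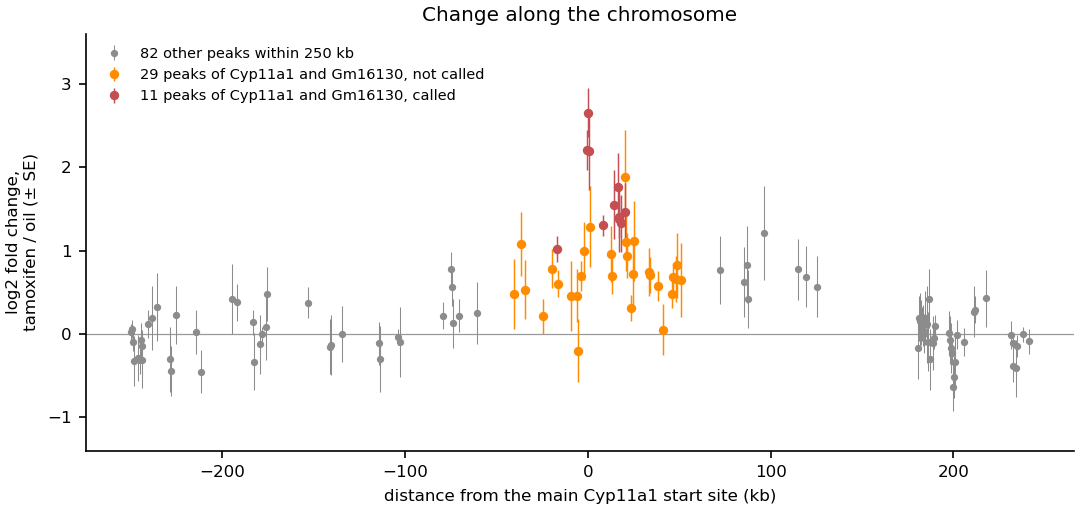
Log2 fold change of tamoxifen over oil (± SE from DESeq2) for the 40 members (red where called, orange where not) and the 82 other peaks within 250 kb (gray), by distance (kb) from the main Cyp11a1 start site. The values peak at 2.65 at the main start site and the gray points scatter around a median of 0.0067.

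To see whether other genes of steroid synthesis differed along with Cyp11a1, 34 genes of the pathway were examined, of which 27 had peaks, 265 in all. No peak (0) was called by DESeq2, whereas edgeR called 1, at Fdx1. At an unadjusted p under 0.05 there were 15 peaks higher and 9 lower, and the median log2 fold change was -0.03. DESeq2 called 1 peak when oil replicate 1 was left out and 2 when tamoxifen replicate 4 was. No peak was assigned to Stard3, Hsd3b1, Hsd3b2, Hsd3b3, Hsd3b6, Nr5a2 or Nr0b1.

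The electron donors of Cyp11a1 had open promoters that did not pass the test. The peak nearest the Fdx1 start (chr9:51963481-51963734) held 236.0 ± 11.1 normalized tags (SD, n = 3) with oil and 224.6 ± 16.9 (SD, n = 3) with tamoxifen, with an adjusted p of 0.98 (DESeq2). That nearest the Fdxr start (chr11:115276874-115277097) held 721.0 ± 38.4 (SD, n = 3) and 709.9 ± 57.0 (SD, n = 3), with an adjusted p of 0.99 (DESeq2). Their log2 fold changes were -0.07 ± 0.13 (SE) and -0.02 ± 0.09 (SE).

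Of the genes for cholesterol delivery, Tspo had a promoter peak (chr15:83563431-83563652) with 381.7 ± 11.7 tags (SD, n = 3) with oil and 377.0 ± 18.1 (SD, n = 3) with tamoxifen. Star, which encodes the acute regulator of cholesterol import, had no peak closer to its start than one 1267 bp downstream (chr8:25809636-25809846), which held 18.5 ± 3.03 (SD, n = 3) and 13.1 ± 3.94 (SD, n = 3). Both lay far from the limits, with log2 fold changes of -0.02 ± 0.11 (SE) and -0.49 ± 0.48 (SE) and adjusted p-values of 0.99 and 0.89 (DESeq2).

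Downstream enzymes showed no calls either. The 9 peaks of Cyp17a1 (17-hydroxylase) had a median log2 fold change of 0.06, the 5 of Cyp11b1 and the 5 of Cyp11b2 (the last steps to corticosterone and aldosterone) 0.02 and 0.45, and the 2 of Cyp19a1 (aromatase) 0.13. The smallest adjusted p among these was 0.43 (DESeq2). At Nr5a1, which encodes the steroidogenic factor whose motif was searched, all 8 peaks had positive log2 fold changes with a median of 0.57. None (0) passed, the smallest adjusted p being 0.35 (DESeq2). At 5 of the 8 all tamoxifen libraries exceeded all oil libraries. This was so at 34 of the 265 pathway peaks and at 11.8% of all peaks, and 25 of the 265 had all below.

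In the pathway list, 1 peak passed the adjusted p limit without reaching the fold limit. It lay in an intron of Soat1 (chr1:156459710-156459935), which encodes an enzyme that esterifies cholesterol for storage, and held 59.6, 50.7 and 53.8 tags after oil and 100.5, 127.0 and 87.5 after tamoxifen. Its log2 fold change was 0.94 ± 0.23 (SE) with an adjusted p of 0.0058 (DESeq2), and the groups did not overlap.

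Mast cells and basophils were examined because mast cells carry c-Kit and could be present in the sort. The 16 marker genes of these cells had 256 peaks, with a median log2 fold change of 0.13. DESeq2 called 5 of these peaks higher and 0 lower, against 0.588% and 0.0659% of all peaks. At an unadjusted p under 0.05, 44 were higher and 6 lower, and edgeR also called 5 peaks, at Cma1, Hdc and Slc18a2. All 5 called by DESeq2 were assigned to Hdc, which encodes histidine decarboxylase and also has a place in myeloid progenitors.

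The Hdc peaks lay 15589 to 31356 bp from its start and had log2 fold changes from 1.13 to 2.43. That with the smallest adjusted p (chr2:126602906-126603273) held 24.3, 25.4 and 39.4 normalized tags after oil and 58.0, 104.7 and 51.2 after tamoxifen, with an adjusted p of 0.014 (DESeq2). In the most distant (chr2:126587180-126587464) tamoxifen replicate 4, at 5.59, barely exceeded the highest oil library at 5.38, while replicates 1 and 3 held 42.5 and 31.2. The peak 27527 bp away (chr2:126590956-126591346) had 27.6, 40.0 and 34.9 tags after oil and 92.8, 88.0 and 44.7 after tamoxifen. At 26086 bp (chr2:126592482-126592703) the values were 17.7, 15.6 and 22.4 against 59.9, 63.5 and 26.1, and at 25488 bp (chr2:126593018-126593363) they were 24.3, 29.3 and 22.4 against 83.1, 80.2 and 30.7. The groups did not overlap at any of the 5, tamoxifen replicate 4 was the lowest of its group at each, and the adjusted p-values were 0.014 to 0.022 (DESeq2). The number of calls in the list was 0 without oil replicate 1, oil replicate 2 or tamoxifen replicate 3, 1 without oil replicate 4 or tamoxifen replicate 1, and 12 without tamoxifen replicate 4.

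Summed over the list, normalized tags were 23590 to 24440 after oil and 25140 to 28030 after tamoxifen, so that the groups did not overlap. The peaks nearest the starts of Cpa3 (mast cell carboxypeptidase) and Mcpt8 (a basophil protease) were weak. They held 138.1 and 109.6 tags per 1000 bp after oil and 175.1 and 133.2 after tamoxifen, with adjusted p-values of 0.85 and 0.94 (DESeq2). Those of Il1rl1 and Il4 were open, at 2212 and 1517 after oil, with log2 fold changes of -0.01 and 0.13. Those of Fcer1a, Tpsab1, Slc18a2 and Mcpt4 had log2 fold changes of 0.47, 0.56, 0.31 and 0.50, with adjusted p-values of 0.34 to 0.68 (DESeq2). At Cpa3, Fcer1a, Tpsab1 and Slc18a2 all tamoxifen libraries exceeded all oil libraries. This was so at 47 of the 256 peaks of the list and at 11.8% of all peaks, and 14 of the 256 had all below. That of Cma1 went from 21.5 to 47.5 normalized tags (adjusted p 0.0503, DESeq2), whereas those of Ms4a2 and Cd200r3 had log2 fold changes of -0.22 and -0.16. Another Cma1 peak, 15011 bp from its start, passed the adjusted p limit (0.040, DESeq2) without reaching the fold limit. The markers thus did not all move the same way. The part of mast cells and basophils in the difference at Cyp11a1 was not tested. In bulk samples, a change in the share of a cell type and a change in accessibility per cell cannot be told apart.

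Other marker lists also moved with the groups, without overlap of their summed tags. T cell genes held 5100 to 5180 tags after oil and 5305 to 5338 after tamoxifen, mature myeloid genes 3372 to 3454 and 3580 to 3829, and blast genes (Kit, Cd34, Flt3, Runx1) 24960 to 26110 and 26680 to 29600. Erythroid genes were lower after tamoxifen, at 10210 to 10620 against 11060 to 11430. DESeq2 called 1 of 80 T cell peaks, 1 of 88 erythroid peaks and 1 of 302 blast peaks, all of them higher. Over all peaks, 0.588% were called higher. Of the 56 mature myeloid peaks DESeq2 called 0 and edgeR called 1, while 6 were higher and 0 lower at an unadjusted p under 0.05. At an unadjusted p under 0.05, 9 T cell peaks were higher and 3 lower, 2 erythroid peaks higher and 8 lower, and 39 blast peaks higher and 3 lower. The called erythroid peak thus ran against the summed tags of its list. For the unadjusted p no share of all peaks is given, here or for the lists above, so those counts do not rank the lists. The called blast peak was the Cd34 promoter peak (chr1:194938784-194939053), which rose with an adjusted p of 8.3e-12 (DESeq2). It held 94.6 ± 21.8 normalized tags (SD, n = 3) with oil and 269.7 ± 60.0 (SD, n = 3) with tamoxifen. Most peaks of the blast list belonged to Runx1. This gene had 269 peaks at any distance, against 44 for Kit, 7 for Cd34 and 4 for Flt3. The start peaks of Kit and Runx1 had log2 fold changes of 0.05 and 0.09, with adjusted p-values of 0.96 and 0.94 (DESeq2). That of Flt3 had 0.73, with an adjusted p of 0.052 (DESeq2). The part of these shifts in the result at Cyp11a1 was not tested.

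**Figure D4:**
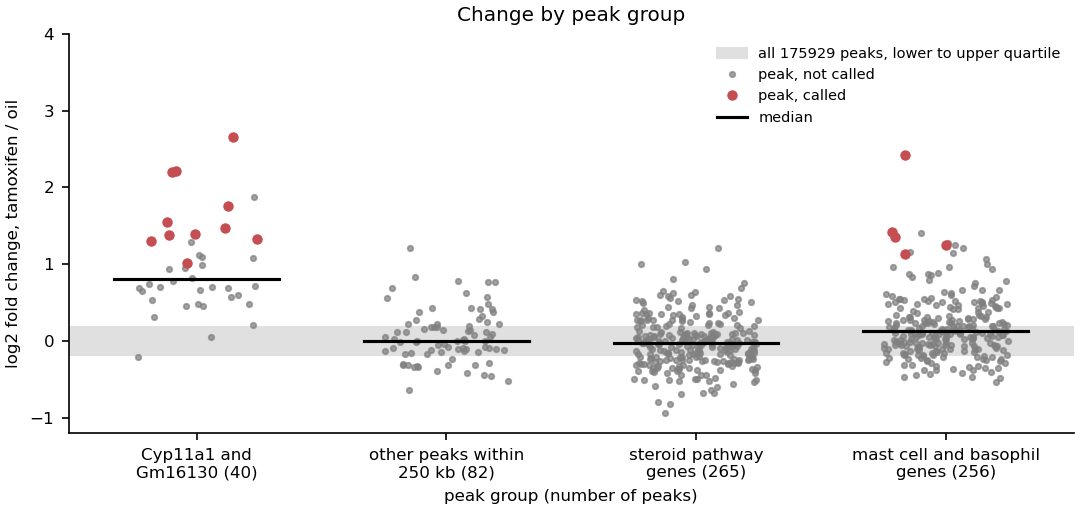
Log2 fold change of tamoxifen over oil for single peaks of the Cyp11a1 and Gm16130 locus (40), the other peaks within 250 kb (82), the steroid pathway genes (265) and the mast cell and basophil genes (256), with called peaks in red, a black line at each median and a gray band between the quartiles of all 175929 peaks. The medians were 0.81, 0.0067, -0.03 and 0.13, and the first group was chosen on this contrast.

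To place the pattern of the main Cyp11a1 promoter peak over the 6 libraries, other peaks within 3000 bp of a TSS were ranked by the root mean square difference of their centred log2(normalized tags + 1) from it, among 51690 peaks with at least 20 normalized tags on average. The 5 nearest belonged to Lilrb4a (0.37), Il16 (0.40), Lilr4b (0.43), Grm6 (0.44) and Gpr149 (0.45). Lilrb4a and Lilr4b encode closely related receptors of myeloid cells, and reads may be shared between these neighbouring copies. Il16 encodes a cytokine, Grm6 a glutamate receptor and Gpr149 an orphan receptor. The Lilrb4a peak (chr10:51490753-51490956) held 6.62, 6.83 and 8.96 tags after oil and 40.6, 100.3 and 28.9 after tamoxifen, with replicate 3 highest and replicate 4 lowest as at Cyp11a1. The second Cyp11a1 promoter peak had rank 10 in this ranking (0.50), and the peak at the Gm16130 start had rank 37 (0.68). With a pseudocount of 5 in place of 1, 3 of these 5 genes stayed among the nearest 5 (Lilrb4a, Lilr4b and Gpr149), while Il16 and Grm6 gave way to AI504432 and another Cyp11a1 peak. Each of the 5 peaks averaged under 20 tags after oil and passed the minimum only through the tamoxifen libraries. The measure is a description over 6 libraries that share their size factors, and peaks with the same group difference are near by construction.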

How the data were processed

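The authors mapped reads to mm10 with Bowtie2, called and merged peaks with HOMER and deposited an estimated count of tags for each peak, unnormalized, in 0.5 steps with at most 3 tags per position (versions not given in the sources used here). The deposited peak score was not used. Because peaks were called in the libraries compared, regions called in neither group are missing.

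After rounding, counts were tested with DESeq2 1.42.0 (R 4.3.3, Wald test of tamoxifen against oil, Benjamini-Hochberg adjustment over all 175929 peaks). The study's methods leave out peaks within 3000 bp of a TSS, but here all peaks entered 1 fit because the locus lies on both sides of that limit. edgeR 4.0.16 (robust quasi-likelihood) served as an alternative. Motifs were read with pysam 0.24.0 from the mm10 reference (GRCm38.p6), in which 0 peaks ran past a chromosome end. In simulated data, 200 of 175929 peaks were changed, all drawn from peaks averaging at least 20 normalized tags. Recovery at weaker peaks, some members among them, was not measured. DESeq2 recovered 93 of 100 at a log2 fold change of 2 in size and 78 of 100 at 1.5, and called 15 unchanged peaks. edgeR recovered 99 and 82 and called 26.

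Members and gene lists were chosen with earlier results of these data known. Named with values are the peak nearest each start site and each called member. So are the member with the highest level after oil and those next to the thresholds. Each called peak of the steroid pathway, neighbourhood and mast cell lists is named too, as are the peaks nearest Star, Fdx1, Fdxr and Tspo. The 5 peaks most like the main Cyp11a1 promoter are also named. The called T cell and erythroid peaks are only counted. Sema7a, Soat1, Nr5a1, Cd34, the further mast cell, basophil and blast markers and the other enzymes were added after their values were seen. Alternatives were the size factors, test, filter, separate fits, fold limit, replicate block and left-out libraries.

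Depth was 57.4 to 74.7 M mapped tags (M, 1000000 tags). Samples were grouped by their titles.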

Additional observations from a re-analysis of the deposited data

How the results depend on the processing

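The 11 calls at the locus numbered 11 with TMM, totals in peaks or mapped totals as size factors and with a filter on low tags, 12 with distal and promoter-proximal peaks fitted separately, and 4 to 14 when a library was left out. The log2 fold change was 2.33 to 2.84 at the peak nearest the Cyp11a1 start and 1.20 to 1.67 at that nearest the Gm16130 start without a library, and the median over members 0.75 to 0.91. Over all peaks 1150 were called, and 369 to 2710 without a library, 1815 with edgeR and 2448 with no fold limit. Steroid pathway calls were 0 to 2 without a library, 1 with edgeR and 1 with no fold limit, neighbourhood calls 0 without a library and 1 with no fold limit, and mast cell and basophil calls 0 to 12 without a library. The share of windows with RUNX letters went from 25.2% to 24.2% with peaks as deposited, which are of other widths.

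The groups share replicate numbers 1 and 4, whose deviations from the group means correlated at -0.044 and 0.051. The labels do not say whether a shared number marks samples handled together. Such weak correlations cannot exclude it at this depth, and no pairing was assumed in the main fit. A replicate block, possible for these 4 libraries only, called 3 members, 0 mast cell and basophil peaks and 52 peaks in all. The same 4 libraries without the block, an alternative chosen after seeing the data, gave 5, 0 and 135. The 3 were both main Cyp11a1 promoter peaks and the intronic peak. The median peak held 45 to 57 tags, and the SEs of the members on the log2 scale ran from 0.13 to 0.56, so that at weakly accessible members smaller differences were not detectable.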
